A study of Homo sapiens with 9 samples.

Results

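The genes of cholesterol and fatty acid synthesis were examined in HepG2 cells, an established human liver cancer line, after loss of KEAP1. The set was chosen by gene symbol and role, with earlier results of these data known, and names 40 genes, of which 36 were among the 11746 numbered genes of the count table and all 36 were tested. It holds 2 branches. The sterol branch had 16 enzymes that turn acetyl-CoA into cholesterol and 4 genes of sterol sensing and transport, 20 genes in all. The fatty acid branch had 8 genes that make, lengthen and desaturate fatty acids and 8 that activate them, build glycerolipids from them or coat the lipid droplet, 16 genes in all. LSS, CYP51A1, INSIG1 and ACACA were not analysed here.

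RNA-Seq was performed on 9 libraries in 3 groups of 3. The sgCtrl cells carried Cas9 and a guide RNA against AAVS1, a locus used as a neutral target, and the KEAP1 KO cells carried Cas9 and 1 of 2 guides against KEAP1, sgKeap1-1 or sgKeap1-2. All 3 populations shared lentiviral transduction and puromycin selection, none of these 9 libraries came from cells given an siRNA, and RNA was taken 48 h after seeding. The labels do not state whether replicates were separate cultures, so p-values measure the spread between these libraries, and no source describes the populations as single clones.

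Cholesterol is built from acetyl-CoA through mevalonate, isoprenoid diphosphates, squalene and lanosterol, and fatty acids are built from the same acetyl-CoA through malonyl-CoA. The SREBP transcription factors, which SCAP escorts out of the endoplasmic reticulum when sterols are scarce, switch on the genes of both pathways, SREBP-2 (gene SREBF2) mainly those of sterols and SREBP-1 (gene SREBF1) mainly those of fatty acids. Hepatocytes are a main site of both pathways in the body. KEAP1 marks the transcription factor NRF2 for destruction, so its loss stabilises NRF2.

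Levels are given as scaled read counts relative to library size (CPM), and differences as log2 fold changes with their standard error (SE). A gene was called at an adjusted p under 0.05 in the quasi-likelihood test of edgeR, with p-values adjusted over 11064 tested genes by the Benjamini-Hochberg method. The libraries held 3011644 to 4725840 reads, median 3758185. Of 8 known NRF2 targets picked as a check, 7 were in the table. All 7 were called higher with sgKeap1-2, against 5.96% of all tested genes, and 6 with sgKeap1-1, against 2.8%. KEAP1 itself was at 63.3, 89.2 and 85.3 CPM in sgCtrl, at 64.1, 62.5 and 53.4 CPM with sgKeap1-1 and at 81.9, 85.6 and 73.9 CPM with sgKeap1-2, and was not called (adjusted p = 0.211 and 0.952). Since reads come from the 3′ end of transcripts, this level does not check an edit made elsewhere in the gene. Replicate 2 of sgKeap1-1 and replicate 3 of sgKeap1-2 stood farthest from their group mates, with chi-square values per degree of freedom of 14.98 to 24.15 over well-counted genes against 4.63 to 9.96 for the other pairs, and counts without either are given beside the results. Fewer expressing cells and less RNA per cell cannot be told apart in bulk RNA.

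Every gene of the set that passed the test against sgCtrl was lower, and none of the 36 genes was called higher, against 2.8% of all tested genes with sgKeap1-1, 5.96% with sgKeap1-2 and 5.51% in the fit of both guides. With sgKeap1-2, 11 of 36 were called lower, against 4.85% of all tested genes, and these were 9 of 20 in the sterol branch and 2 of 16 in the fatty acid branch. With sgKeap1-1, 5 of 36 were called lower, against 1.4% of all tested genes, and these were 4 of 20 in the sterol branch and 1 of 16 in the fatty acid branch. When replicate numbers entered the model as a block, 13 of 36 were called lower with sgKeap1-1, 11 in the sterol branch and 2 in the fatty acid branch, while lower calls over all tested genes went from 155 to 412. In a fit of both guides against sgCtrl, 12 of 36 were called lower, against 4.13% of all tested genes, with 10 of 20 in the sterol branch and 2 of 16 in the fatty acid branch. The same 3 sgCtrl libraries serve every one of these contrasts. ACAT2, HMGCS1, SQLE, MSMO1 and GPAM were called with each guide, MVK, IDI1, FDFT1, EBP, DHCR7 and FADS2 with sgKeap1-2 alone at this threshold without the block, and SC5D in the fit of both guides.

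**Figure D1:**
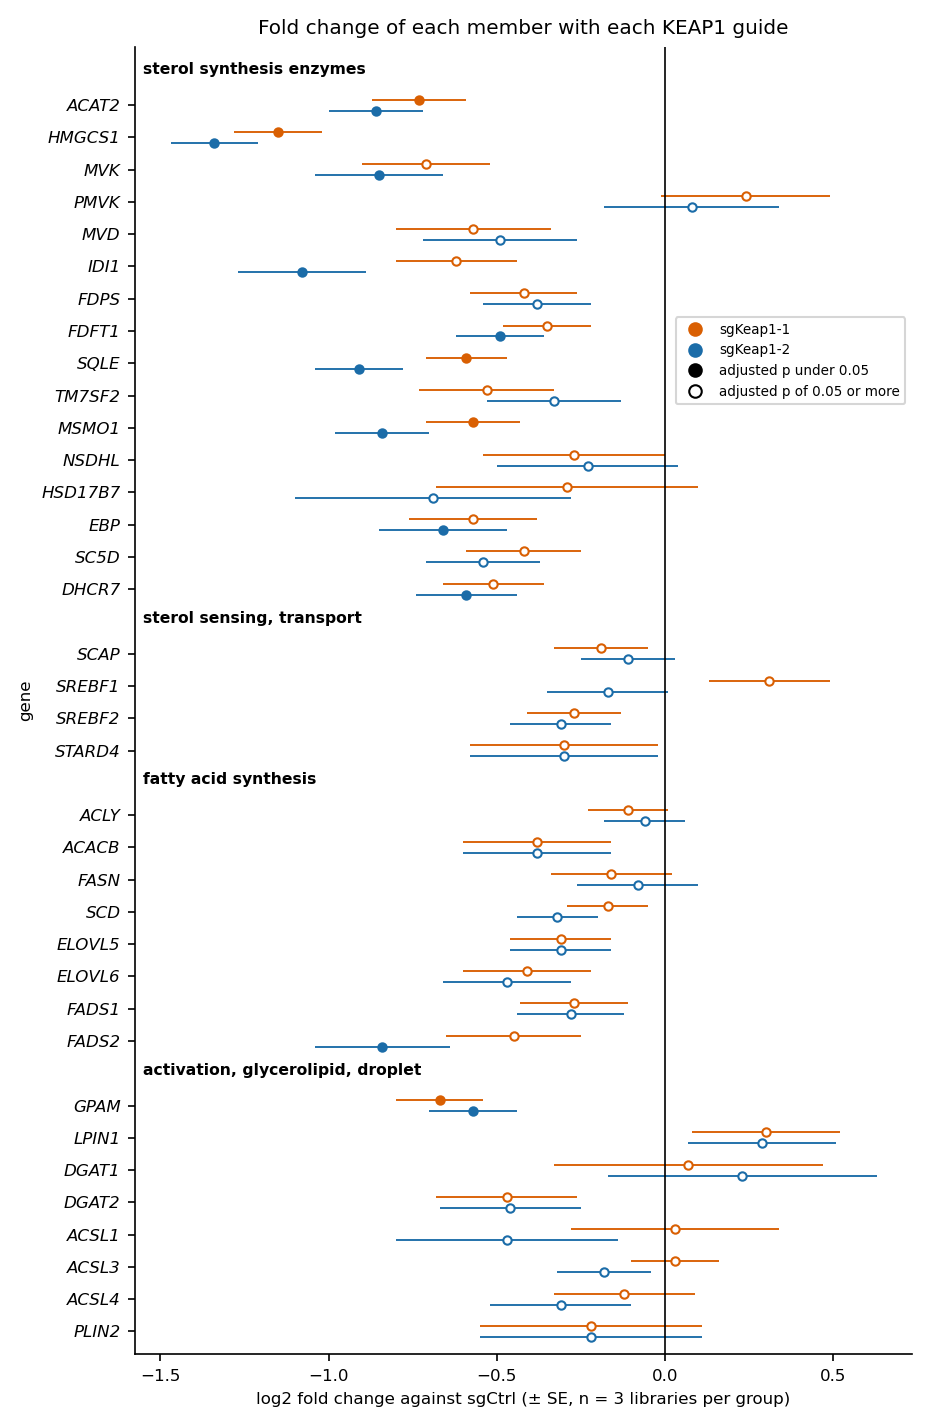
Log2 fold change against sgCtrl (horizontal axis) of each of the 36 genes, by role, with sgKeap1-1 in orange and sgKeap1-2 in blue. Bars are the SE with 3 libraries per group, and filled points have an adjusted p under 0.05. Among the 16 sterol enzymes 15 lie below 0 with each guide, PMVK being the exception, and HMGCS1 lies lowest at -1.15 and -1.34. Of all 11064 tested genes, 5541 and 5716 had a negative log2 fold change.

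The median log2 fold change of the 16 sterol enzymes was -0.55 with sgKeap1-1 and -0.62 with sgKeap1-2. Over the 4 genes of sterol sensing and transport it was -0.23 and -0.24. The 8 genes of fatty acid synthesis had medians of -0.29 and -0.32, and the 8 genes of activation, glycerolipid synthesis and droplet coat -0.05 and -0.26. Over all tested genes the median was -0.001 and -0.014. Every library with sgKeap1-1 was below every sgCtrl library in 18 of 36 genes, against 10.3% of all tested genes, and these held 13 of the 16 sterol enzymes. With sgKeap1-2 the groups separated in this way in 14 of 36, against 13.7% of all tested genes, with 10 of the 16 sterol enzymes among them. All 6 KEAP1 KO libraries were below all 3 sgCtrl libraries in 12 of 36, against 6.74% of all tested genes, 10 in the sterol branch and 2 in the fatty acid branch. Which branch was more affected was not tested.

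The counts of calls moved with single libraries. With sgKeap1-1, the 5 calls became 3 without sgCtrl replicate 2, without sgCtrl replicate 3, without sgKeap1-1 replicate 1 or without sgKeap1-1 replicate 2, and became 11 without sgKeap1-2 replicate 3, which enters the estimate of the spread. With sgKeap1-2, the 11 calls became 7 without sgCtrl replicate 2 or 3 or without sgKeap1-2 replicate 1 or 2, and 15 without sgKeap1-2 replicate 3. For both guides together the 12 calls became 7 without sgCtrl replicate 2, 10 without sgKeap1-1 replicate 2 and 14 without sgKeap1-2 replicate 3. Without sgCtrl replicate 1 the counts were 5, 8 and 8. The calls of lower genes over the whole table moved too. With sgKeap1-1 the 155 became 70, 134 and 87 without sgCtrl replicate 1, 2 or 3, 78, 105 and 100 without sgKeap1-1 replicate 1, 2 or 3, and 253 without sgKeap1-2 replicate 3. With sgKeap1-2 the 537 became 314, 409 and 346 without sgCtrl replicate 1, 2 or 3, and 358, 373 and 566 without sgKeap1-2 replicate 1, 2 or 3. For both guides the 457 became 226, 345 and 258 without sgCtrl replicate 1, 2 or 3, 471 without sgKeap1-1 replicate 2 and 536 without sgKeap1-2 replicate 3.

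**Figure D2:**
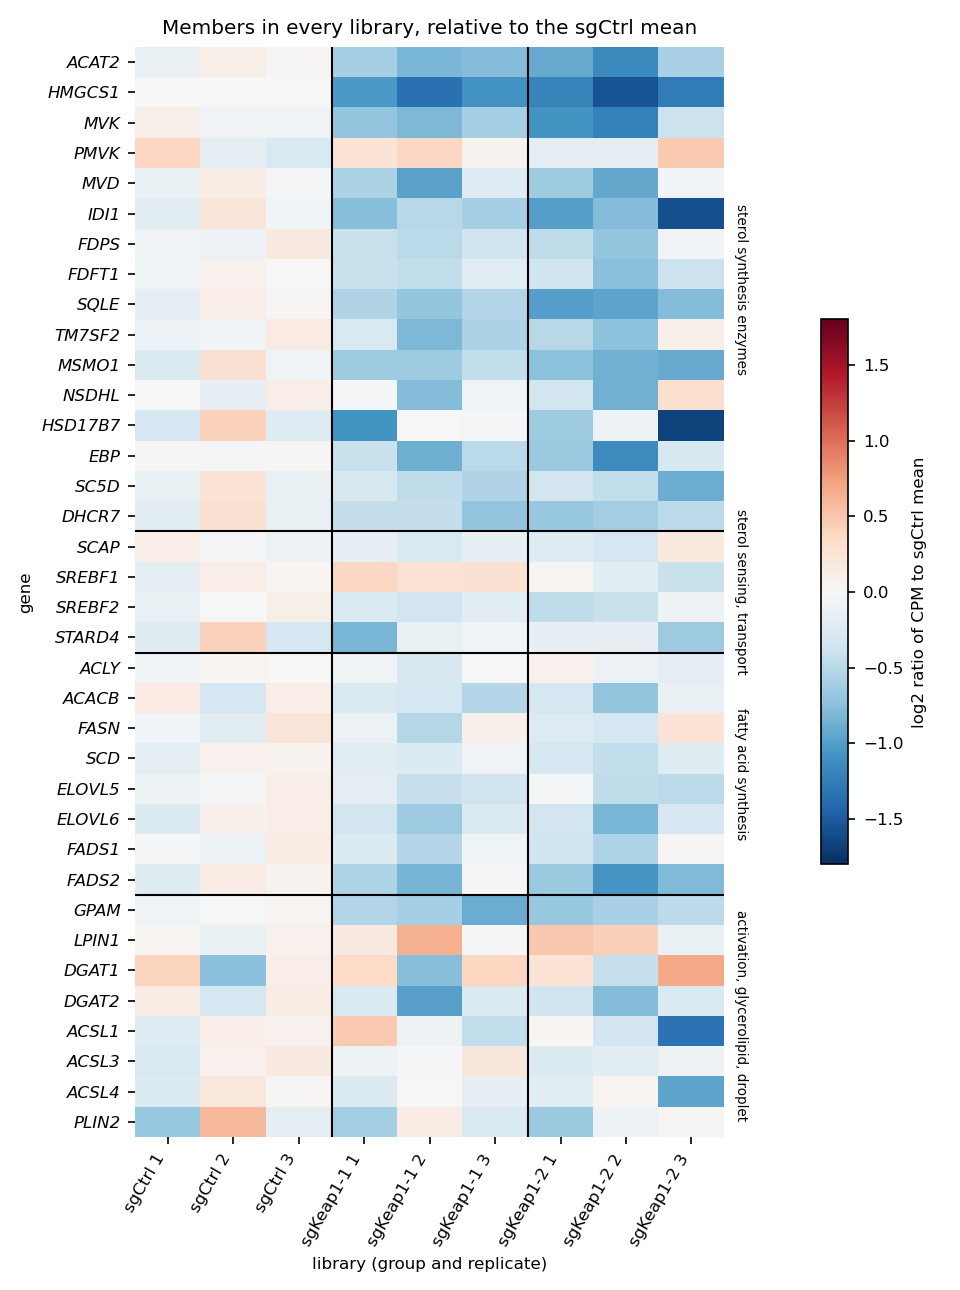
Log2 ratio of CPM to the sgCtrl mean (colour, blue lower and red higher) for the 36 genes (rows, by role) in the 9 libraries (columns). The sterol enzymes are blue in most KEAP1 KO libraries, while in sgKeap1-2 replicate 3 NSDHL and PMVK are red and TM7SF2, FDPS and MVD are near white. PMVK is also above its sgCtrl mean in every sgKeap1-1 library.

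In the first steps, which condense acetyl-CoA and lead to mevalonate, the largest difference of the set was seen in HMGCS1, the cytosolic synthase of hydroxymethylglutaryl-CoA. HMGCS1 was at 461, 463 and 465 CPM in sgCtrl, at 227, 182 and 217 CPM with sgKeap1-1 and at 200, 157 and 193 CPM with sgKeap1-2. All 6 KEAP1 KO libraries were below sgCtrl, the guides overlapped, and the 3 sgCtrl libraries lay within a few CPM of one another. HMGCS1 fell to 45.1% of its sgCtrl level with sgKeap1-1 (log2 fold change -1.15, SE 0.13, adjusted p = 9.09e-05) and to 39.6% with sgKeap1-2 (-1.34, SE 0.13, adjusted p = 1.12e-05).

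ACAT2, the cytosolic thiolase that joins acetyl-CoA units, was at 508, 601 and 563 CPM in sgCtrl, at 369, 314 and 324 CPM with sgKeap1-1 and at 298, 250 and 370 CPM with sgKeap1-2. Every KEAP1 KO library was below every sgCtrl library. ACAT2 fell to 60.2% with sgKeap1-1 (log2 fold change -0.73, SE 0.14, adjusted p = 0.00805) and to 54.9% with sgKeap1-2 (-0.86, SE 0.14, adjusted p = 0.00127). The calls of HMGCS1 and ACAT2 held with each guide under all 18 alternatives run, each library left out in turn among them.

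Of the enzymes that turn mevalonate into isoprenoid diphosphates, MVK and IDI1 were called with sgKeap1-2. MVK, mevalonate kinase, was at 89.8, 80.0 and 80.0 CPM in sgCtrl, at 50.9, 47.3 and 55.0 CPM with sgKeap1-1 and at 39.1, 35.6 and 63.7 CPM with sgKeap1-2. Both guides lay below sgCtrl and overlapped each other, and MVK was called with sgKeap1-2 (log2 fold change -0.85, SE 0.19, adjusted p = 0.0102) but not with sgKeap1-1 (-0.71, SE 0.19, adjusted p = 0.0518, or 0.00537 with the replicate block). IDI1, which isomerises isopentenyl diphosphate, was at 83.5, 111 and 92.6 CPM in sgCtrl, at 56.3, 67.5 and 62.8 CPM with sgKeap1-1 and at 47.7, 55.6 and 31.7 CPM with sgKeap1-2. It separated from sgCtrl with both guides and was lowest in sgKeap1-2 replicate 3, with log2 fold changes of -0.62 (SE 0.18, adjusted p = 0.0858, or 0.00912 with the block) and -1.08 (SE 0.19, adjusted p = 0.00169). PMVK, phosphomevalonate kinase, had log2 fold changes of 0.24 (SE 0.25) and 0.08 (SE 0.26), and its CPM overlapped across groups, from 12.0 to 20.6.

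MVD, the mevalonate diphosphate decarboxylase, and FDPS, the farnesyl diphosphate synthase, did not pass the test without the block. MVD had log2 fold changes of -0.57 and -0.49 (SE 0.23 each) and FDPS of -0.42 and -0.38 (SE 0.16 each). With the replicate block both were called lower with sgKeap1-1 (adjusted p = 0.0336 and 0.0302) and with sgKeap1-2 (0.0385 and 0.0206). In sgKeap1-2 replicate 3, MVD at 61.8 CPM and FDPS at 233 CPM lay within the sgCtrl ranges of 59.1 to 70.1 and 223 to 268 CPM, whereas all other KEAP1 KO libraries were below those ranges.

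At the entry to sterols, SQLE and FDFT1 were lower. SQLE, squalene epoxidase, was at 207, 250 and 232 CPM in sgCtrl, at 158, 141 and 159 CPM with sgKeap1-1 and at 115, 119 and 133 CPM with sgKeap1-2. The 3 groups did not overlap with one another. SQLE fell to 66.5% with sgKeap1-1 (log2 fold change -0.59, SE 0.12, adjusted p = 0.0124) and to 53.2% with sgKeap1-2 (-0.91, SE 0.13, adjusted p = 0.000236). FDFT1, squalene synthase, was at 380, 424 and 401 CPM in sgCtrl, at 303, 294 and 347 CPM with sgKeap1-1 and at 312, 238 and 307 CPM with sgKeap1-2. Its KEAP1 KO libraries were all below sgCtrl and overlapped between guides, and its log2 fold changes were -0.35 (SE 0.13, adjusted p = 0.18) and -0.49 (SE 0.13, adjusted p = 0.0249).

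Among the enzymes that work on the sterol ring after lanosterol, MSMO1, EBP, SC5D and DHCR7 were called lower in the fit of both guides. TM7SF2, NSDHL and HSD17B7 were not called in that fit without the block. Over all tested genes 4.13% were called lower there. MSMO1, the methylsterol monooxygenase that removes methyl groups at carbon 4, was at 178, 258 and 203 CPM in sgCtrl, at 136, 137 and 157 CPM with sgKeap1-1 and at 127, 117 and 113 CPM with sgKeap1-2. All KEAP1 KO libraries were below the lowest sgCtrl library, with log2 fold changes of -0.57 (SE 0.14, adjusted p = 0.0382) and -0.84 (SE 0.14, adjusted p = 0.00161). EBP, the sterol isomerase, was at 182, 176 and 182 CPM in sgCtrl, at 136, 97.4 and 129 CPM with sgKeap1-1 and at 113, 81.0 and 148 CPM with sgKeap1-2. The sgCtrl libraries were close together and above all 6 others, replicate 2 being lowest with each guide, and the log2 fold changes were -0.57 (SE 0.19, adjusted p = 0.127, or 0.0084 with the replicate block) and -0.66 (SE 0.19, adjusted p = 0.0407).

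DHCR7, the reductase of the last step by way of dehydrocholesterol, was at 107, 148 and 112 CPM in sgCtrl, at 91.1, 90.4 and 74.4 CPM with sgKeap1-1 and at 76.0, 79.3 and 87.7 CPM with sgKeap1-2. Both guides lay below sgCtrl and overlapped each other, sgCtrl replicate 2 was the highest, and the log2 fold changes were -0.51 (SE 0.15, adjusted p = 0.0756, or 0.0193 with the replicate block) and -0.59 (SE 0.15, adjusted p = 0.0213). SC5D, the desaturase one step before, was at 65.5, 85.1 and 65.3 CPM in sgCtrl, at 58.7, 52.5 and 49.4 CPM with sgKeap1-1 and at 57.3, 52.9 and 38.5 CPM with sgKeap1-2. It was called in the fit of both guides (log2 fold change -0.48, SE 0.14, adjusted p = 0.047) and with neither guide alone (adjusted p = 0.244 and 0.0628), though with the replicate block it was called with sgKeap1-2 (adjusted p = 0.0109). Leaving out any 1 library except sgKeap1-2 replicate 3 ended that call, with an adjusted p from 0.0501 to 0.24. With no scaling factors the adjusted p was 0.0593, in limma-voom it was 0.0609 and with a minimum of 10 counts in every library 0.0559, so that the call was kept in 6 of 17 alternatives.

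TM7SF2, NSDHL and HSD17B7, which reduce or demethylate the same ring, did not pass the test without the block. TM7SF2 had log2 fold changes of -0.53 and -0.33 (SE 0.20 each), the first called with the replicate block (adjusted p = 0.039), NSDHL of -0.27 and -0.23 (SE 0.27 each) and HSD17B7, at 3.39 to 16 CPM, of -0.29 (SE 0.39) and -0.69 (SE 0.41). In sgKeap1-2 replicate 3, NSDHL at 89.9 CPM was above the highest sgCtrl library at 80.3 CPM and TM7SF2 at 109 CPM was within the sgCtrl range of 93.3 to 112 CPM. The same library had the lowest CPM of IDI1, SC5D and HSD17B7 among the 9. Reads of HSD17B7 and FDPS may be shared with near-identical pseudogenes, and with no stated strand setting reads from antisense partners cannot be told apart, so these values are uncertain.

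Of the calls of sterol enzymes with 1 guide, several depended on single libraries, each with its direction kept. With sgKeap1-1, SQLE was not called without sgCtrl replicate 2 or 3 or sgKeap1-1 replicate 1 or 2 (adjusted p from 0.0512 to 0.0621), and MSMO1 was not called without those 4, without sgKeap1-1 replicate 3 or without sgKeap1-2 replicate 1 (0.0569 to 0.168). With sgKeap1-2, MVK was not called without sgCtrl replicate 1 or sgKeap1-2 replicate 1 (0.0515 and 0.0539), DHCR7 without sgCtrl replicate 2 or sgKeap1-2 replicate 1 or 2 (0.0705 to 0.102), FDFT1 without any 1 sgCtrl library or sgKeap1-2 replicate 2 (0.0541 to 0.119), and EBP without any 1 sgCtrl library, sgKeap1-1 replicate 1 or 3 or sgKeap1-2 replicate 1 or 2 (0.0537 to 0.141). EBP was also not called with only sgCtrl and sgKeap1-2 in the fit (adjusted p = 0.0503). IDI1, SQLE and MSMO1 were called with sgKeap1-2 whichever library was left out.

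**Figure D3:**
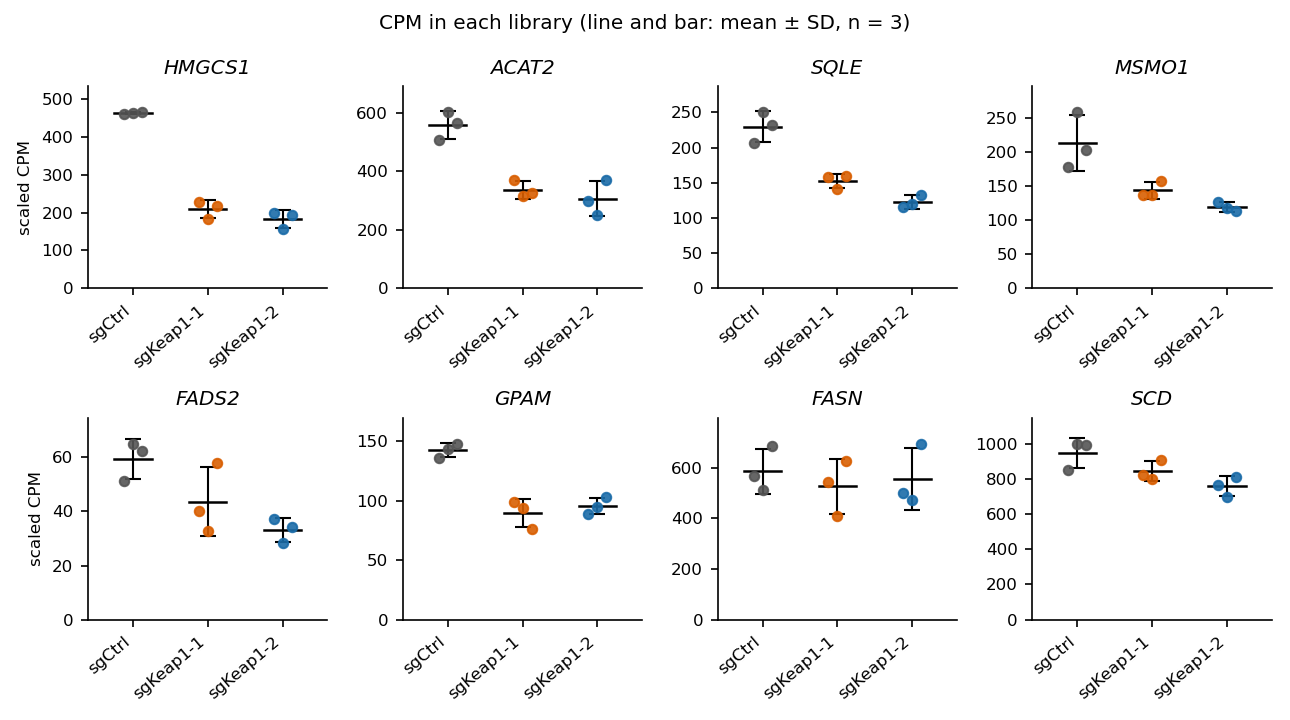
CPM (vertical axis, from 0) of 8 genes in each library of sgCtrl, sgKeap1-1 and sgKeap1-2, with the mean and SD of 3 libraries as line and bar. In HMGCS1, ACAT2, SQLE, MSMO1 and GPAM all KEAP1 KO libraries lie below all sgCtrl libraries, in FADS2 this holds for sgKeap1-2, in SCD for sgKeap1-2 too, and in FASN the groups overlap.

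No gene of sterol sensing and transport passed the test. SREBF2, the gene of SREBP-2, was at 57.8, 63.3 and 68.0 CPM in sgCtrl, at 53.1, 49.5 and 54.4 CPM with sgKeap1-1 and at 45.6, 47.8 and 59.1 CPM with sgKeap1-2. It lay below sgCtrl in every sgKeap1-1 library and overlapped it through sgKeap1-2 replicate 3, with log2 fold changes of -0.27 (SE 0.14, adjusted p = 0.436) and -0.31 (SE 0.15, adjusted p = 0.221). SREBF1, the gene of SREBP-1, was at 22.3, 27.2 and 25.7 CPM in sgCtrl, at 32.6, 30.1 and 30.5 CPM with sgKeap1-1 and at 25.9, 21.9 and 18.9 CPM with sgKeap1-2. It was the 1 gene of the set with every sgKeap1-1 library above every sgCtrl library, against 11.5% of all tested genes, and its log2 fold changes of 0.31 (SE 0.18, adjusted p = 0.458) and -0.17 (SE 0.18, adjusted p = 0.631) differed in sign. SCAP, the escort of the SREBPs, had log2 fold changes of -0.19 and -0.11 (SE 0.14 each). STARD4, a carrier of cholesterol between membranes, had -0.30 with each guide (SE 0.28).

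In fatty acid synthesis 1 of 8 genes, FADS2, was called lower with sgKeap1-2 without the block, against 4.85% of all tested genes. With sgKeap1-1 0 of 8 were called, against 1.4%. All 8 had a negative log2 fold change with each guide, as did 5541 and 5716 of all 11064 tested genes. FADS2, the desaturase that acts first on polyunsaturated fatty acids, was at 51.1, 65.0 and 62.2 CPM in sgCtrl, at 40.2, 32.9 and 57.9 CPM with sgKeap1-1 and at 37.2, 28.3 and 34.2 CPM with sgKeap1-2. It was below sgCtrl in every sgKeap1-2 library, while sgKeap1-1 replicate 3 lay within the sgCtrl range, and its log2 fold changes were -0.45 (SE 0.20, adjusted p = 0.311) and -0.84 (SE 0.20, adjusted p = 0.016). Its call with sgKeap1-2 was lost without sgCtrl replicate 2 or 3 or sgKeap1-2 replicate 2 (adjusted p from 0.056 to 0.0658), and its call in the fit of both guides (log2 fold change -0.63, SE 0.19, adjusted p = 0.043) was lost without any 1 of 8 libraries, sgKeap1-1 replicate 3 being the exception (0.0604 to 0.165), and with no scaling factors (0.0576).

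FASN, the synthase that makes palmitate, was at 566, 510 and 684 CPM in sgCtrl, at 544, 409 and 626 CPM with sgKeap1-1 and at 499, 473 and 694 CPM with sgKeap1-2. The groups overlapped, replicate 2 was the lowest and replicate 3 the highest in each, and the log2 fold changes were -0.16 and -0.08 (SE 0.18 each). SCD, which puts a double bond into stearate, was at 852, 1000 and 996 CPM in sgCtrl, at 825, 800 and 909 CPM with sgKeap1-1 and at 767, 700 and 813 CPM with sgKeap1-2. Its sgKeap1-2 libraries were all below sgCtrl, with log2 fold changes of -0.17 (SE 0.12, adjusted p = 0.572) and -0.32 (SE 0.12, adjusted p = 0.103, or 0.0314 with the replicate block). ACLY, which makes cytosolic acetyl-CoA from citrate, had log2 fold changes of -0.11 and -0.06 (SE 0.12 each), so that it was at 92.5% and 95.7% of its sgCtrl level.

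ACACB, an acetyl-CoA carboxylase, and the elongases ELOVL5 and ELOVL6 had log2 fold changes between -0.31 and -0.47 with each guide and did not pass the test. ELOVL6 separated from sgCtrl with both guides, at 32.6 to 42.1 CPM in sgCtrl, 24.4 to 32.3 CPM with sgKeap1-1 and 21.7 to 31.3 CPM with sgKeap1-2, with log2 fold changes of -0.41 and -0.47 (SE 0.19 each, adjusted p = 0.338 and 0.153). FADS1, the partner desaturase of FADS2, had log2 fold changes of -0.27 and -0.28 (SE 0.16 each) and overlapped sgCtrl with both guides.

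Among the 8 genes of fatty acid activation, glycerolipid synthesis and droplet coat, GPAM was called with both guides. GPAM, the mitochondrial acyltransferase that starts glycerolipid synthesis, was at 136, 144 and 148 CPM in sgCtrl, at 98.9, 93.7 and 76.3 CPM with sgKeap1-1 and at 89.0, 95.1 and 103 CPM with sgKeap1-2. The sgCtrl libraries were above all 6 others. GPAM fell to 62.8% with sgKeap1-1 (log2 fold change -0.67, SE 0.13, adjusted p = 0.00798) and to 67.1% with sgKeap1-2 (-0.57, SE 0.13, adjusted p = 0.0115). The call with sgKeap1-2 was lost without sgCtrl replicate 3 or sgKeap1-2 replicate 1 (adjusted p = 0.0541 and 0.058).

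The other 7 genes of that group did not pass the test with either guide without the block. DGAT2, which makes triacylglycerol, had log2 fold changes of -0.47 and -0.46 (SE 0.21 each, adjusted p = 0.296 and 0.197), both called with the replicate block (adjusted p = 0.0135 and 0.0115). DGAT1, its unrelated counterpart, was lowest in replicate 2 of every group, at 30.6, 30.3 and 38.8 CPM against 56.3 to 83.1 CPM in the other 6 libraries, and its SE was 0.40 with each guide. PLIN2, a coat protein of the lipid droplet, spread from 424 to 1020 CPM within sgCtrl, and its log2 fold change of -0.22 with each guide (SE 0.33) became 0.19 without sgCtrl replicate 2. LPIN1, a phosphatidate phosphatase, had log2 fold changes of 0.30 and 0.29 (SE 0.22 each). The acyl-CoA synthetases ACSL1, ACSL3 and ACSL4 had log2 fold changes from -0.12 to 0.03 with sgKeap1-1 and from -0.47 to -0.18 with sgKeap1-2.

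Between the KEAP1 KO populations, edgeR called 0 of 36 genes, against 0.0181% of all tested genes, and limma-voom and DESeq2 also called 0 of 36. At an unadjusted p under 0.05, 3 of 36 genes were lower with sgKeap1-2 than with sgKeap1-1. Over all 11064 tested genes, 562 had such a p in either direction. The 3 genes were SREBF1 (log2 difference -0.49, SE 0.18, adjusted p = 0.9), SQLE (-0.32, SE 0.12, adjusted p = 0.915) and IDI1 (-0.47, SE 0.19, adjusted p = 0.916). The calls that passed with sgKeap1-2 and not with sgKeap1-1 are therefore not shown to differ between guides, and an adjusted p this high does not show that the guides act alike. The median difference over the 36 genes was -0.07 and over all tested genes -0.003.

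**Figure D4:**
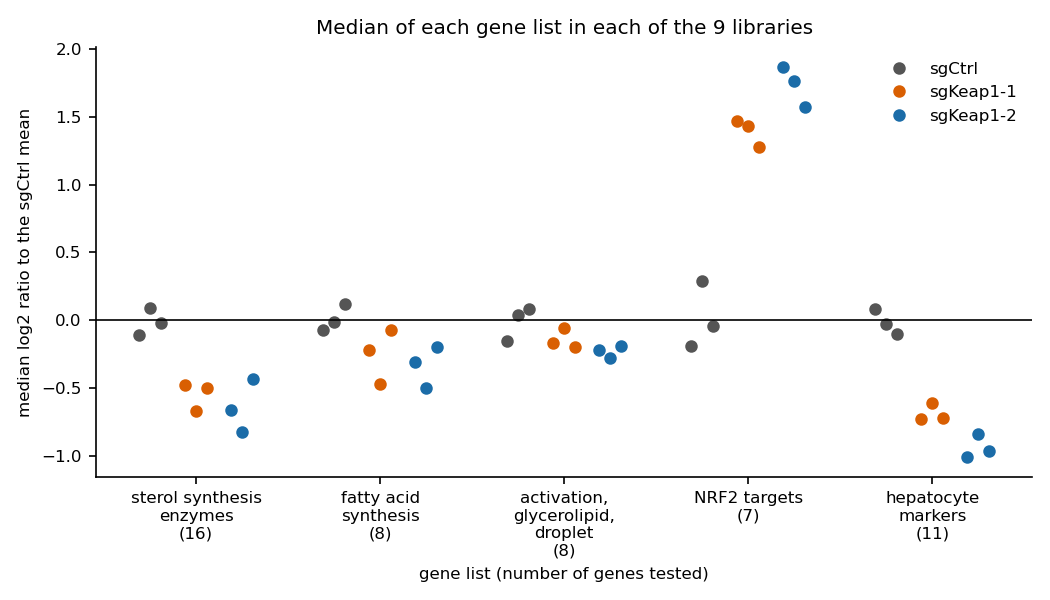
Median log2 ratio to the sgCtrl mean (vertical axis) of 5 gene lists in each of the 9 libraries, sgCtrl in grey, sgKeap1-1 in orange and sgKeap1-2 in blue. For the sterol enzymes the sgCtrl libraries lie between -0.11 and 0.09 and the KEAP1 KO libraries between -0.82 and -0.43, and the hepatocyte markers move the same way.

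Taken library by library, the median log2 ratio of the 16 sterol enzymes to their sgCtrl mean was -0.11, 0.09 and -0.02 in sgCtrl, -0.48, -0.67 and -0.50 with sgKeap1-1, and -0.66, -0.82 and -0.43 with sgKeap1-2. For the 8 genes of fatty acid synthesis it was -0.07, -0.01 and 0.12 in sgCtrl, -0.22, -0.47 and -0.07 with sgKeap1-1, and -0.31, -0.50 and -0.20 with sgKeap1-2. Replicate 2 was the lowest library of each KEAP1 KO group in both lists. The sterol medians separated both KEAP1 KO groups from sgCtrl but not from each other, whereas for fatty acid synthesis sgKeap1-1 replicate 3 equalled sgCtrl replicate 1 at -0.07.

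Markers of the hepatocyte moved with the sterol enzymes. Of 11 such markers, all present in every library, 7 were called lower with sgKeap1-1, against 1.4% of all tested genes, and 9 with sgKeap1-2, against 4.85%, among them ALB, the gene of albumin, with log2 fold changes of -1.10 and -1.66 (SE 0.19 each). Their summed level was 39660 to 51810 CPM in sgCtrl, 25440 to 34540 CPM with sgKeap1-1 and 21900 to 25760 CPM with sgKeap1-2. APOA2, the second apolipoprotein of high-density particles, had log2 fold changes of 0.35 and 0.38 (SE 0.16 each). Of 8 markers of other cell types, PTPRC, PECAM1, VWF, ADIPOQ and KRT5 were not analysed here, COL1A1 was at most 5.1 CPM and too low to test, and CD14 and ACTA2, which summed to 44.7 to 72.7 CPM per library, were not called. The part of these markers in the lower sterol enzymes was not tested.

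Further genes of the same pathways, outside the set of 36, were counted too, against the same shares of all tested genes, 1.4% called lower and 2.8% higher with sgKeap1-1 and 4.85% and 5.96% with sgKeap1-2. Of 19 other sterol genes, 1 was called lower and 0 higher with sgKeap1-1, and 3 were called lower and 1 higher with sgKeap1-2, with medians of 0.03 and -0.02. TMEM97, a sterol-responsive membrane protein, was at 247, 264 and 259 CPM in sgCtrl, at 167, 127 and 176 CPM with sgKeap1-1 and at 163, 123 and 185 CPM with sgKeap1-2. It was below sgCtrl in all 6 libraries and fell by 0.71 on the log2 scale with each guide (SE 0.16, adjusted p = 0.0191 and 0.0104). Its call with sgKeap1-1 was lost without any 1 sgCtrl library or sgKeap1-1 replicate 1 or 2 (adjusted p from 0.0554 to 0.0796).

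Of 28 other fatty acid and glycerolipid genes, 4 were called lower and 2 higher with sgKeap1-1, and 5 lower and 4 higher with sgKeap1-2, against those shares of 1.4% and 2.8%, and 4.85% and 5.96%, with medians of -0.06 and -0.01. ELOVL2, an elongase of polyunsaturated fatty acids, was at 218, 168 and 177 CPM in sgCtrl, at 96.9, 98.3 and 108 CPM with sgKeap1-1 and at 71.7, 67.6 and 70.3 CPM with sgKeap1-2, and none of the 3 groups overlapped. Its log2 fold changes were -0.89 (SE 0.13, adjusted p = 0.000786) and -1.43 (SE 0.13, adjusted p = 7.35e-06). MID1IP1, which promotes polymerisation of acetyl-CoA carboxylase, was at 28.1, 22.1 and 20.9 CPM in sgCtrl, at 8.77, 12.2 and 11.0 CPM with sgKeap1-1 and at 7.08, 10.2 and 8.72 CPM with sgKeap1-2. Both guides lay below sgCtrl and overlapped each other, with log2 fold changes of -1.15 (SE 0.23, adjusted p = 0.00833) and -1.44 (SE 0.23, adjusted p = 0.00103), the first lost without sgCtrl replicate 1 or sgKeap1-1 replicate 1 (adjusted p = 0.0628 and 0.0545).

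MLXIPL, the gene of the carbohydrate-responsive factor ChREBP, was at 400, 362 and 381 CPM in sgCtrl, at 252, 245 and 242 CPM with sgKeap1-1 and at 173, 202 and 245 CPM with sgKeap1-2. All 6 libraries were below sgCtrl, with log2 fold changes of -0.63 (SE 0.13, adjusted p = 0.011) and -0.88 (SE 0.13, adjusted p = 0.000482). The first of these calls was lost without sgCtrl replicate 1 or 3 or sgKeap1-1 replicate 1 (adjusted p from 0.0512 to 0.0685). ACSS2, which makes acetyl-CoA from acetate, had log2 fold changes of -0.80 (SE 0.20, adjusted p = 0.0387) and -0.74 (SE 0.20, adjusted p = 0.029), and its calls were lost without any 1 sgCtrl or sgKeap1-1 library for the first (0.0709 to 0.158) and without sgCtrl replicate 1 or 2 or sgKeap1-2 replicate 1 or 2 for the second (0.0799 to 0.119).

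Called higher with both guides without the block were GPAT3 and MLXIP. GPAT3, an acyltransferase of the endoplasmic reticulum that catalyses the same reaction as GPAM, was at 5.03, 8.17 and 7.81 CPM in sgCtrl, at 27.3, 35.7 and 32.1 CPM with sgKeap1-1 and at 41.6, 47.3 and 21.8 CPM with sgKeap1-2. No library of either guide overlapped sgCtrl, and the level rose 4.55-fold (log2 fold change 2.19, SE 0.30, adjusted p = 0.000511) and 5.28-fold (2.40, SE 0.30, adjusted p = 0.000107), held under all 18 alternatives. MLXIP, a factor related to ChREBP, had log2 fold changes of 0.49 (SE 0.13, adjusted p = 0.0488) and 0.62 (SE 0.13, adjusted p = 0.00622). The first lies at the threshold and was lost in 14 of 18 alternatives, 8 of them leaving out 1 library (adjusted p from 0.0649 to 0.226). PLIN3 was called higher with sgKeap1-2 (log2 fold change 0.70, SE 0.12, adjusted p = 0.00112). With sgKeap1-1 PLIN3 was not called (0.36, SE 0.12, adjusted p = 0.117, or 0.0432 with the replicate block). Its libraries were at 235 to 257 CPM in sgCtrl, 292 to 341 CPM with sgKeap1-1 and 381 to 444 CPM with sgKeap1-2. The PLIN3 call in the fit of both guides (0.54, SE 0.13, adjusted p = 0.0125) was lost without sgCtrl replicate 1 or 3 (0.0835 and 0.0526).

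**Figure D5:**
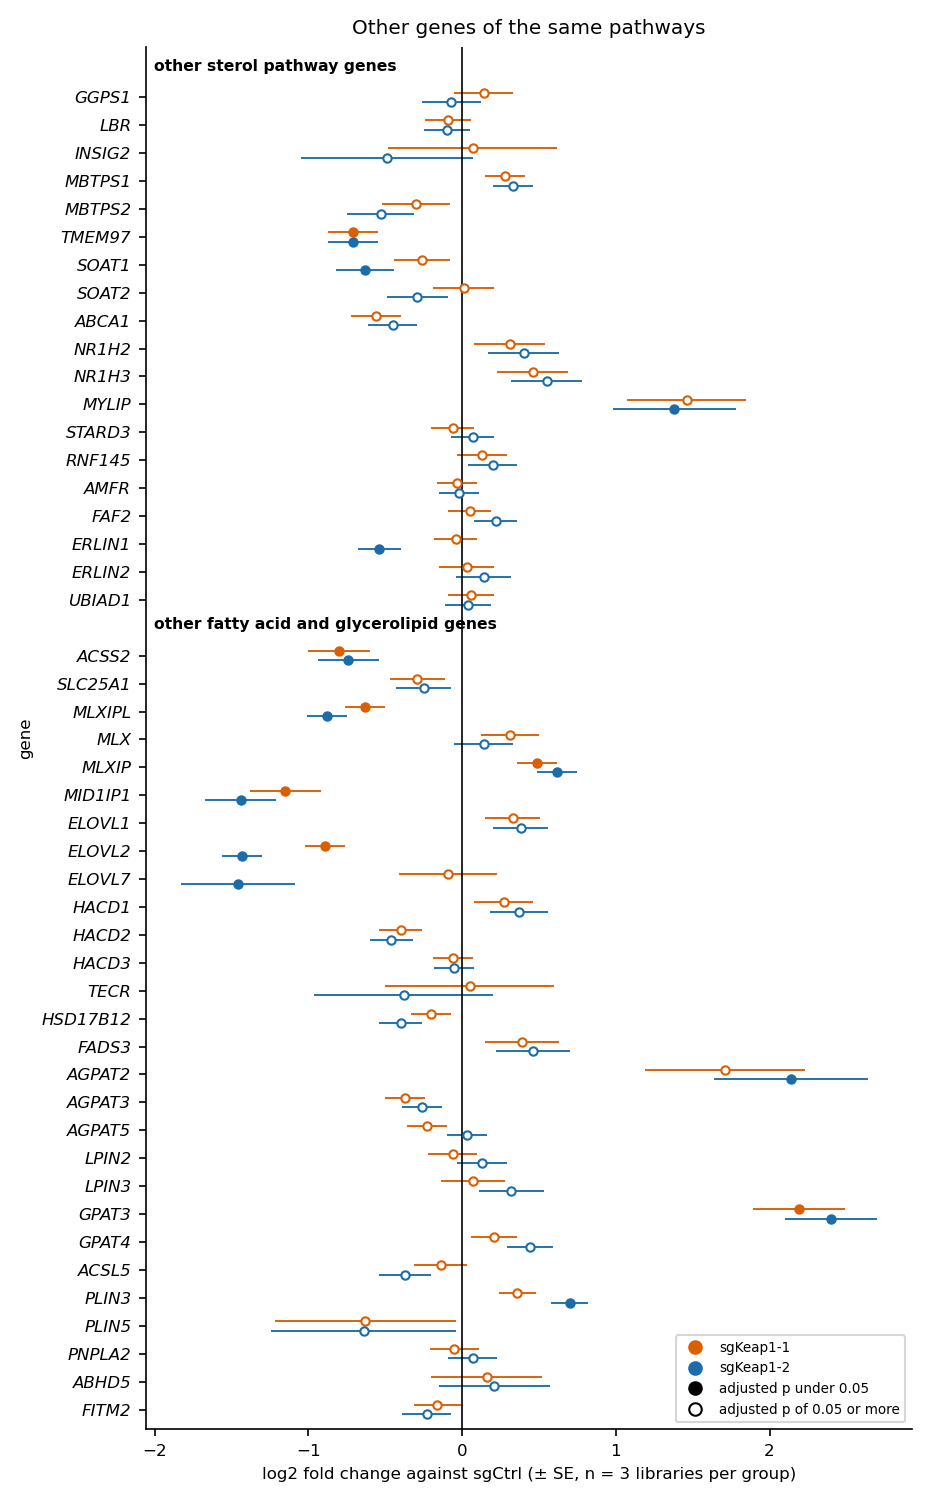
Log2 fold change against sgCtrl (horizontal axis) with its SE for 47 further genes of the sterol and of the fatty acid and glycerolipid pathways, sgKeap1-1 in orange and sgKeap1-2 in blue, filled where the adjusted p is under 0.05. Of the genes called with both guides, MID1IP1 and ELOVL2 lie farthest left, and GPAT3 lies farthest right at 2.19 and 2.40.

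Since sterol genes are known to be read by SREBPs together with the CCAAT-binding factor NF-Y, the promoters of the set were searched for 4 short motifs on both strands. Each promoter ran from 250 bases before to 50 bases after a RefSeq start site on GRCh38.p14, 300 bases in all. The sterol branch had 22 promoters of 17 genes and the fatty acid branch 22 promoters of 13 genes. Of the 11 genes called lower with either guide, 8 had a promoter in the search. The core of the sterol regulatory element, TCACNCC, stood in 7 sterol promoters (31.8%) and 5 fatty acid promoters (22.7%), against 15.5% of all 35116 promoters. CCAAT stood in 16 sterol promoters (72.7%) and 9 fatty acid promoters (40.9%), against 34.6% of all promoters. The E-box CACGTG stood in 13.6% and 9.09%, against 7.26%, and the core of the antioxidant response element read by NRF2, TGACNNNGC, in 9.09% and 9.09%, against 13.3%. Over the 12987 promoters of tested genes alone the shares were 16% for TCACNCC, 35.1% for CCAAT, 9.42% for CACGTG, above that of the fatty acid branch, and 14.8% for TGACNNNGC. Promoters of 1 gene overlap, so these shares are descriptions with no test, and a match is not a site.

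Of the genes called lower with either guide and searched, HMGCS1, MSMO1 and MVK hold both TCACNCC and CCAAT in the same promoter. IDI1 holds each of them, but not in the same promoter. The share of all promoters that hold both was not counted. The promoters of HMGCS1, MSMO1 and MVK are shown from RefSeq, 5′ to 3′ on the strand of the gene. Matches of TCACNCC and of CCAAT or its complement ATTGG are in capitals.
HMGCS1, chr5:43313363-43313662, minus strand: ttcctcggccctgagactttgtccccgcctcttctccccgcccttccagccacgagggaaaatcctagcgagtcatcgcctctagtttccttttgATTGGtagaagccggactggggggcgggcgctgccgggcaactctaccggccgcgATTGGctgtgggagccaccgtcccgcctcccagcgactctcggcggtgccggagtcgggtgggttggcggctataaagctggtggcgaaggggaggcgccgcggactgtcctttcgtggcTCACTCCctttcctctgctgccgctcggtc
MSMO1, chr4:165327419-165327718, plus strand: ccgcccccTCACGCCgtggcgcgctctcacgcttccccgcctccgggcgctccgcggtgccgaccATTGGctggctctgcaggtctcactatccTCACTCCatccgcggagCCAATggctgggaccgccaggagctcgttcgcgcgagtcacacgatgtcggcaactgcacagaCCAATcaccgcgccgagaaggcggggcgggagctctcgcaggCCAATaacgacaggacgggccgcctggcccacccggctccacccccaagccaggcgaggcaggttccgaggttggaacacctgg
MVK, chr12:109573544-109573843, plus strand: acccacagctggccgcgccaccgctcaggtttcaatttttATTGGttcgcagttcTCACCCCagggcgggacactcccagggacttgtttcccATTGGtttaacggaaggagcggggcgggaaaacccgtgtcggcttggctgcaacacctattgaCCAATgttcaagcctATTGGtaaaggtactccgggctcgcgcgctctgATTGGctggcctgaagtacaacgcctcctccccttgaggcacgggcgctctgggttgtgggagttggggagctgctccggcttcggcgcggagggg
In HMGCS1 the sterol element core TCACTCC lies at positions 20 to 26 after the start site and ATTGG occurs at 2 places before it. MSMO1 has the cores TCACGCC and TCACTCC and 4 CCAAT matches in either orientation, and MVK has the core TCACCCC and 5.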

How the data were processed

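RNA of 9 HepG2 libraries was read with QuantSeq, which sequences the 3′ end of polyadenylated transcripts. The deposited table holds raw counts per gene. Per the labels' processing notes, the authors ran FastQC 0.72, cutadapt 1.16, STAR 2.7.5b and featureCounts 1.6.3. The build is GRCh37 in the study's methods and hg38 in the processing notes, and annotation and strand setting are not given in the sources used here. Every row exceeded 0.5 CPM in at least 3 libraries.

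Of 12798 rows, 1052 without an Entrez number (1.34% of reads) were left out, and 11740 of the other 11746 had a symbol. Counts were scaled by TMM and tested with edgeR 4.0.16 (quasi-likelihood, robust, filterByExpr, R 4.3.3), all 3 groups in 1 fit, with Benjamini-Hochberg adjustment over 11064 genes. CPM uses TMM-scaled library sizes, and library medians a pseudocount of 0.5 CPM. The scripts were tested on simulated data. Alternatives were limma-voom (limma 3.58.1), which the authors used, DESeq2 1.42.0, other scalings, filters and samples, each library left out, and a replicate block. Same-numbered libraries share a prefix in the labels whose meaning is not given. Their deviations from group means correlated at 0.163 to 0.378 between sgCtrl and sgKeap1-1, each pair above 0.1, but at -0.013 to 0.341 between sgCtrl and sgKeap1-2, so the fit without the block is the main one, and block values are given where they change a call. No 2 replicates agreed within sampling noise. With 3 libraries a group, depth and spread limit what can be called among low or variable genes.

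All genes of the set, and the pathway genes called with both guides, were named. Some single genes of the check lists are counted but not reported here. Members, lists and motifs were chosen with earlier results of these data known.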

Additional observations from a re-analysis of the deposited data

How the results depend on the processing

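The alternatives changed few directions. Of 51 called fold changes, 428 of 439 repeats under another scaling, filter, tool, sample choice or model kept the call, as did 374 of 459 repeats that left out 1 library, and 0 were reversed. Replicate numbers were shared between groups, but not every library correlated best with its own number (r from -0.013 to 0.521 over 9 same-numbered pairs, 7 above 0.1). With the replicate number as a block, calls against sgCtrl rose to 13 (sterol 11, fatty acid 2) with sgKeap1-1, 16 (12 and 4) with sgKeap1-2 and 17 (13 and 4) for both guides, while lower calls over all 11064 genes rose from 155 to 412, from 537 to 948 and from 457 to 762. For both guides, MVD (adjusted p = 0.0132), FDPS (0.00954), TM7SF2 (0.0415), FADS1 (0.0402) and DGAT2 (0.00382) passed under the block. With only the 2 groups compared in the fit, sgKeap1-1 had 8 calls, 7 of them sterol, and sgKeap1-2 10, 8 of them sterol, EBP being lost (0.0503). Without scaling beyond library size, the fatty acid calls for both guides were 1 and the sterol calls 9. Sterol calls for both guides were also 9 in limma-voom and with at least 10 counts in every library. With rows without an Entrez number kept, an alternative chosen after seeing the data, the counts of calls among the 36 genes stayed the same, MLXIP with sgKeap1-1 was lost (0.0513), and lower calls over all genes were 151, 531 and 465.

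Leaving out 1 library at a time gave 3 to 11 calls (sterol 2 to 10, fatty acid 1) with sgKeap1-1, 7 to 15 (sterol 6 to 12, fatty acid 0 to 3) with sgKeap1-2 and 7 to 14 (sterol 6 to 13, fatty acid 1 to 2) for both guides. Uncalled log2 fold changes that crossed 0 in such repeats were, with sgKeap1-1, DGAT1 (-0.19 to 0.36), ACSL1 (-0.26 to 0.22), ACSL3 (-0.09 to 0.13) and PLIN2 (-0.47 to 0.19). With sgKeap1-2 they were PMVK (-0.19 to 0.32), NSDHL (-0.59 to 0.02), FASN (-0.27 to 0.05), DGAT1 (-0.07 to 0.48), PLIN2 (-0.47 to 0.19) and KEAP1 (-0.12 to 0.11). For both guides they were FASN (-0.21 to 0.01), DGAT1 (-0.11 to 0.40), ACSL3 (-0.19 to 0.03) and PLIN2 (-0.47 to 0.19), and between guides TM7SF2 (-0.08 to 0.39). ACSL1 with sgKeap1-1 was also -0.02 with the replicate block and -0.01 in limma-voom. The cause of these changes was not tested.

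With 3 libraries a group and 3011644 to 4725840 reads each, SEs of members with either guide alone against sgCtrl ran from 0.12 to 0.41, so that modest differences of low or variable genes, such as HSD17B7 and DGAT1, were not detectable at this depth and spread.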
